A study of Mus musculus with 12 samples.

Results

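The 37 genes described here are known from the brain cells that a sort for microglia and macrophages should leave out. They are 11 oligodendrocyte, 12 astrocyte and 14 neuron genes among 19938 genes with a named probe set, and all 37 were measured. Each gene was read from the probe set annotated with its symbol alone, and Glul, which has more than 1 such probe set, from the brighter. The comparison asked how much of these transcripts each sorted population carried. On microglia (MG) and macrophages (MPs) of normal brain 15 and 20 of them were above background. These were 40.5% and 54.1% of the members, against 27.1% and 36.3% of all genes there. On the 4 blood macrophage arrays 1 to 5 were above it. The Gr1+ and Gr1- arrays labelled as blood had 11 and 12, and MG and MPs of tumors had 9 each. Gr1+ and Gr1- cells of tumors had 7 and 8. On every array but those of normal brain the share of members was below that of all genes.

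Oligodendrocytes wrap axons in myelin, a membrane held together by proteins such as Mbp, whose mRNA is carried into the cell's processes. Astrocytes clear glutamate from synapses and couple to each other through gap junctions, and neurons make the machinery of vesicle release and of the cytoskeleton of axons and dendrites. Microglia and blood leukocytes do not make myelin or synapses, but some of the 37 genes are also known from leukocytes or from many cell types. Those 7, held apart as such, were Cnp, Mal, Thy1, Glul, Slc1a3, Clu and Cpe, and the other 30 are called restricted below.

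Cells were flow-sorted from C57BL/6 mice of 7 weeks, either normal or implanted with GL261, an established mouse glioma line, and in the latter case killed 2 weeks later. There were 12 arrays, 1 per condition. The 6 brain arrays were MG and MPs of normal brain, MG and MPs of tumor brain, and Gr1+ and Gr1- cells of tumor brain. The 6 blood arrays were Gr1+ and Gr1- cells of tumor-bearing mice, and blood macrophages named high and low of tumor-bearing and of normal mice. MG and MPs of normal brain, MG and MPs of tumor brain, Gr1+ and Gr1- cells of tumor brain and Gr1+ and Gr1- cells of blood are called pairs below. MG and MPs were told apart by CD45, low on MG and high on MPs among CD11b+ cells. Gr1 is a surface antigen of neutrophils and inflammatory monocytes. The number of mice behind an array, and whether paired populations came from the same animals, were not given in the sources used here. With 1 array per condition no condition could be tested, and every test below sets arrays of different populations against each other, so its p-value measures the spread between populations. RNA was amplified in 2 cycles from a small input, and values are deposited log2 signals. A difference of 1 on this scale is 2-fold. Background was the 95th percentile of 1027 olfactory receptor genes on the same array, from 8.93 to 10.09 on the log2 scale.

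Markers of the sorted cells bear on what follows. All 11 measured microglia markers were above background on normal MG, normal MPs, tumor MPs and tumor Gr1- cells, 10 on tumor MG and 5 on tumor Gr1+ cells. The same markers were above background in 5 cases on the array labelled blood Gr1+ and in all 11 on the array labelled blood Gr1-, against 0 to 3 on the 4 blood macrophage arrays. Olfml3, a microglia marker, was at 12.73 on blood Gr1- and 9.54 on blood Gr1+, and between 7.45 and 8.58 on blood macrophages. Some transcripts of blood were also higher on these 2 arrays than on the brain arrays. Alas2, the heme synthesis enzyme of red cell precursors, was at 9.94 and 9.47 on blood Gr1+ and Gr1-, between 7.40 and 8.36 on the brain arrays and between 11.64 and 12.71 on blood macrophages. Pax5, the B cell transcription factor, was at 10.68 on blood Gr1- and 9.09 on blood Gr1+, between 8.16 and 8.49 on the brain arrays and between 11.21 and 13.17 on blood macrophages. On blood Gr1+ Pax5 was not above background. Of 6 B cell markers, 5 were above background on blood Gr1- and 1 on blood Gr1+, against 0 or 1 on each brain array. Of 4 erythroid markers, 1 was above it on each blood Gr1 array. In microglia markers blood Gr1- thus stands apart from the blood macrophage arrays, and blood Gr1+ less so. On blood Gr1+ the microglia markers Csf1r and Cx3cr1 were at 11.73 and 10.44, against 11.90 and 10.53 on tumor blood macrophage high. Limma of brain against blood and the counts of non-overlap between brain and blood are given with and without both blood Gr1 arrays. The comparisons of Gr1 cells rest on these arrays and have no version without them. What sets them apart was not tested. The normal blood macrophage high array had the fewest genes above background, 11.2% of all genes against 26.3% to 39.1% on the others. NK cell markers were above background in 10 of 10 cases on it and on tumor blood macrophage low, and in none on the other blood macrophage arrays, tumor high and normal low. Neutrophil markers were the reverse, with 7 of 11 above background on tumor high and normal low and 0 on tumor low and normal high. The array named high in one set thus had the markers of the array named low in the other. Neutrophil markers were also above background in 9 of 11 cases on normal MPs and in 7 on blood Gr1+, against 1 on tumor MPs. All 7 markers of macrophages at the brain's borders were above it on normal MPs and 3 on tumor MPs. Normal and tumor MPs thus differed in these markers. The names high, low and macrophage are used below as the labels give them, and which cells they hold was not tested.

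They were above background in 15 of 37 cases on normal MG and 20 on normal MPs, in 9 on both tumor MG and tumor MPs, and in 7 and 8 on tumor Gr1+ and Gr1- cells. On blood Gr1+ and Gr1- the counts were 11 and 12. On blood macrophages they were 3 and 5 for high and low of tumor-bearing mice and 1 and 3 for high and low of normal mice. As shares of the 37 these were 40.5% and 54.1% on normal MG and MPs, above the 27.1% and 36.3% of all genes there. On every other array the share of members was below that of all genes, with 24.3% against 26.3% on tumor MG and 24.3% against 32.0% on tumor MPs, 18.9% against 35.2% and 21.6% against 39.1% on tumor Gr1+ and Gr1-, 29.7% against 32.3% and 32.4% against 37.7% on blood Gr1+ and Gr1-, and 2.7% to 13.5% against 11.2% to 34.9% on blood macrophages. Among the 30 restricted genes the counts were 11 and 14 on normal brain, 6 and 6 on tumor MG and MPs, 4 and 4 on tumor Gr1+ and Gr1-, 7 and 7 on blood Gr1+ and Gr1-, and 0 or 1 on each blood macrophage array. In all, 21 members passed background on at least 1 array, none did so on all 12, and 16 never did. In these bulk samples, fewer cells of a type and less RNA per cell cannot be told apart.

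**Figure D1:**
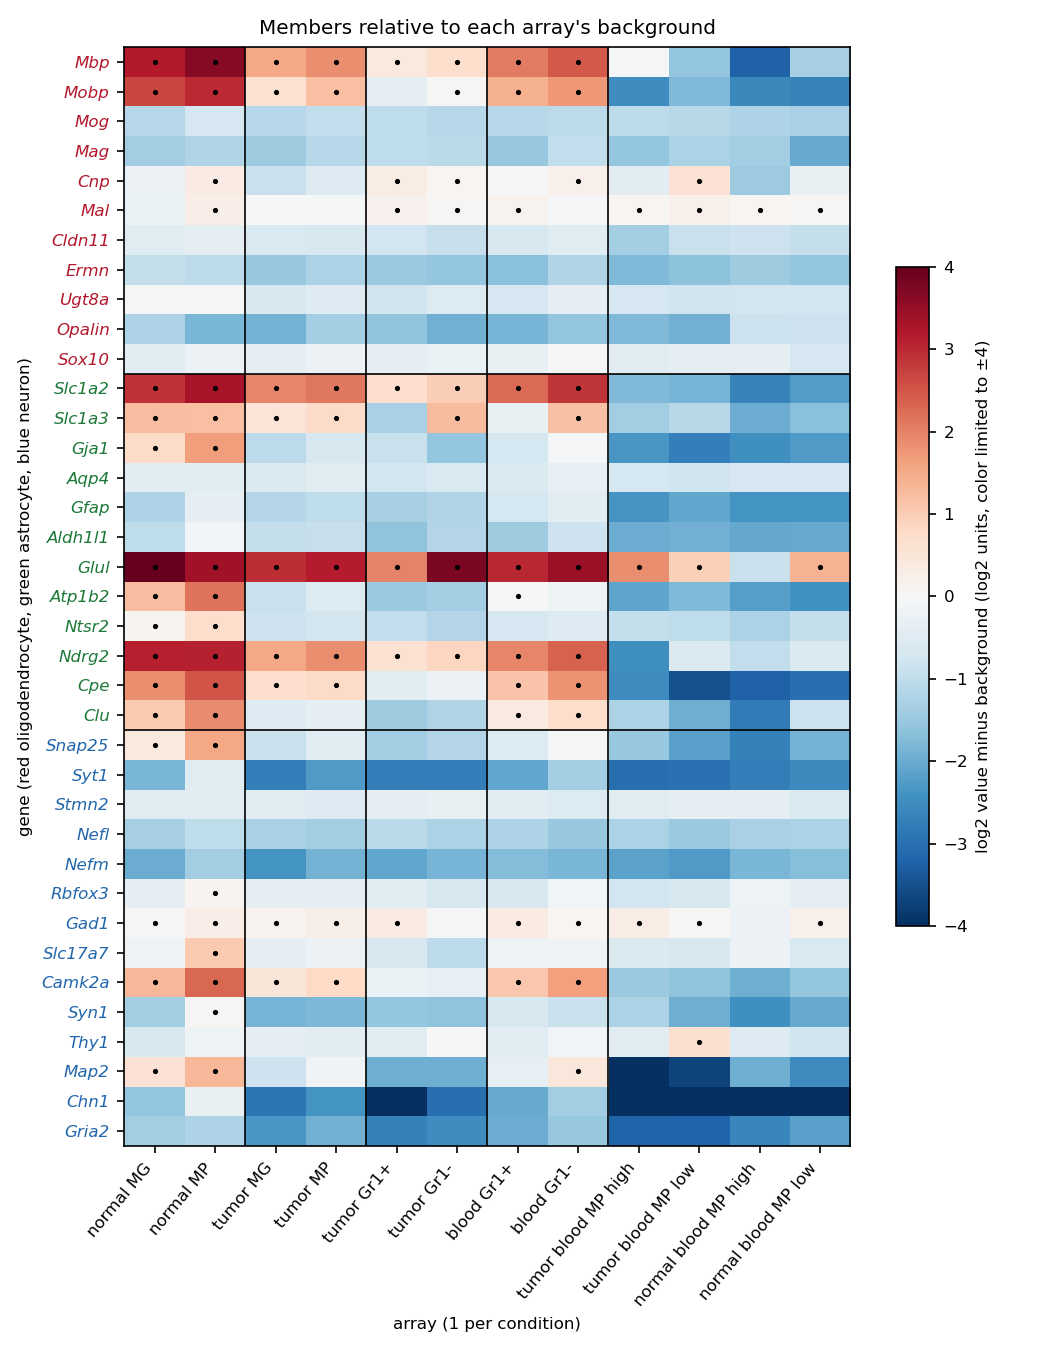
Log2 value minus the array's background for the 37 genes (rows, by cell class) on the 12 arrays (columns); a black dot marks a value above background. Values above background are most numerous on normal brain, with 15 rows on MG and 20 on MPs. They number 7 to 12 on the other brain arrays and both blood Gr1 arrays, and the 4 blood macrophage columns are almost wholly blue.

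Of the oligodendrocyte genes, the myelin pair Mbp and Mobp carried the signal. Mbp, myelin basic protein, was at 12.60 and 12.70 on normal MG and MPs, 10.93 and 11.10 on tumor MG and MPs, 9.41 and 9.65 on tumor Gr1+ and Gr1-, 11.16 and 11.49 on blood Gr1+ and Gr1-, and 8.96, 7.67, 6.86 and 8.07 on blood macrophages (tumor high, tumor low, normal high, normal low). Mobp, another protein of compact myelin, was at 12.10 and 12.04, 9.98 and 10.42, 8.66 and 8.97, 10.53 and 10.77, and 6.52, 7.50, 7.52 and 6.73 in the same order. For both genes the arrays of a pair lay close together, tumor Gr1 arrays lay below tumor MG and MPs, the blood Gr1 arrays lay above the tumor Gr1 arrays, and the blood macrophage arrays lay lowest and below background. Other myelin genes had no such pattern. Mog, Mag, Cldn11, Ermn, Ugt8a, Opalin and Sox10, the lineage's transcription factor, were below background on all 12 arrays, with Mog between 7.79 and 8.84. Cnp and Mal, both also known outside the lineage, passed background on 5 and 8 arrays that included blood macrophages, with Cnp between 8.49 and 9.82 and Mal between 8.94 and 10.17.

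The astrocyte genes were the class with the most members above background, 9 of 12 on each normal brain array. Slc1a2, the main glutamate transporter of astrocytes, was at 12.31 and 12.37 on normal MG and MPs, 11.32 and 11.34 on tumor MG and MPs, 9.70 and 9.92 on tumor Gr1+ and Gr1-, 11.35 and 11.90 on blood Gr1+ and Gr1-, and 7.25, 7.40, 7.43 and 7.16 on blood macrophages. Ndrg2, a differentiation gene of astrocytes, was at 12.55 and 12.15, 10.90 and 11.10, 9.62 and 9.80, 11.03 and 11.39, and 6.56, 8.66, 9.12 and 8.85. Cpe, which trims peptide hormone precursors, was at 11.30 and 11.60, 10.03 and 10.01, 8.58 and 8.71, 10.22 and 10.82, and 6.51, 5.78, 6.87 and 6.40. By their means the pairs had the order of Mbp in all of them, and blood Gr1 arrays did not overlap with blood macrophages.

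A second set of astrocyte genes passed background mainly on normal brain. Atp1b2, a sodium pump subunit, was at 10.66 and 11.25 there, 8.47 and 8.69 on tumor MG and MPs, 7.53 on each tumor Gr1 array, 9.10 and 8.82 on blood Gr1+ and Gr1-, and from 6.92 to 7.87 on blood macrophages. Gja1, the gap junction protein connexin 43, was at 10.20 and 10.76 on normal brain, 8.32 and 8.60 on tumor MG and MPs, 8.12 and 7.39 on tumor Gr1+ and Gr1-, 8.40 and 8.94 on blood Gr1+ and Gr1-, and from 6.52 to 7.65 on blood macrophages. Clu, the secreted chaperone clusterin, was at 10.47 and 10.95, 8.85 and 8.85, 7.60 and 7.73, 9.46 and 9.72, and from 7.29 to 8.55. Normal brain lay above every other array for these genes. Ntsr2, a neurotensin receptor, passed background only on normal MG and MPs, at 9.54 and 9.76. Aqp4, the water channel of astrocyte endfeet, Gfap, their intermediate filament, and Aldh1l1, a folate enzyme, stayed below background on all 12 arrays.

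Slc1a3 and Glul behaved differently. Slc1a3, a glutamate transporter also known from microglia and macrophages, was at 10.67 and 10.28 on normal MG and MPs, 9.90 and 10.00 on tumor MG and MPs, 7.72 and 10.21 on tumor Gr1+ and Gr1-, 8.81 and 10.21 on blood Gr1+ and Gr1-, and from 7.61 to 8.13 on blood macrophages. Glul, glutamine synthetase, was at 13.60 and 12.43, 12.33 and 12.37, 10.99 and 12.70, 12.12 and 12.49, and from 9.20 to 10.88. Slc1a3 was lower on Gr1+ than on Gr1- cells by over 2-fold in both pairs, and Glul by over 2-fold in the tumor pair alone, with a log2 difference of -0.36 in the blood pair. The median log2 value of the 11 microglia markers was 8.26 on tumor Gr1+ against 11.76 on tumor Gr1-, and 8.52 on blood Gr1+ against 11.45 on blood Gr1-. Their part in the values of Slc1a3 and Glul was not tested.

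Among neuron genes other than Gad1, Camk2a and Map2 passed background on the most arrays, 6 and 3. Camk2a, a synaptic kinase, was at 10.75 and 11.37 on normal MG and MPs, 9.84 and 10.03 on tumor MG and MPs, 8.74 and 8.61 on tumor Gr1+ and Gr1-, 10.17 and 10.67 on blood Gr1+ and Gr1-, and 7.53, 7.63, 8.14 and 7.83 on blood macrophages. Map2, a microtubule protein of dendrites, was at 10.03 and 10.41, 8.54 and 9.09, 7.06 and 6.99, 8.76 and 9.47, and 4.79, 5.56, 8.13 and 6.89. Camk2a was above background on both blood Gr1 arrays and Map2 on blood Gr1- alone, while both were below it on tumor Gr1+ and Gr1-. Snap25, a protein of the vesicle fusion complex, passed background only on normal brain, at 9.82 and 10.60, and was at 8.53 and 8.97 on blood Gr1+ and Gr1- against 7.63 and 7.75 on tumor Gr1+ and Gr1-. Slc17a7, a vesicular glutamate transporter, Syn1, a vesicle protein, and Rbfox3, the splicing factor NeuN, passed background on normal MPs alone, at 10.12, 9.12 and 9.19. Syt1, the calcium sensor of vesicle release, Chn1, Gria2, a glutamate receptor subunit, Stmn2, Nefl and Nefm, the last pair being neurofilament subunits, never passed it. Chn1, a Rac-regulating protein, still ran from 3.32 on tumor blood macrophage high to 8.79 on normal MPs. Gad1, an enzyme of GABA synthesis, was nearly flat, between 8.85 and 9.84, and above background on 10 arrays. Thy1, also a T cell antigen, passed background only on tumor blood macrophage low, at 9.91.

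**Figure D2:**
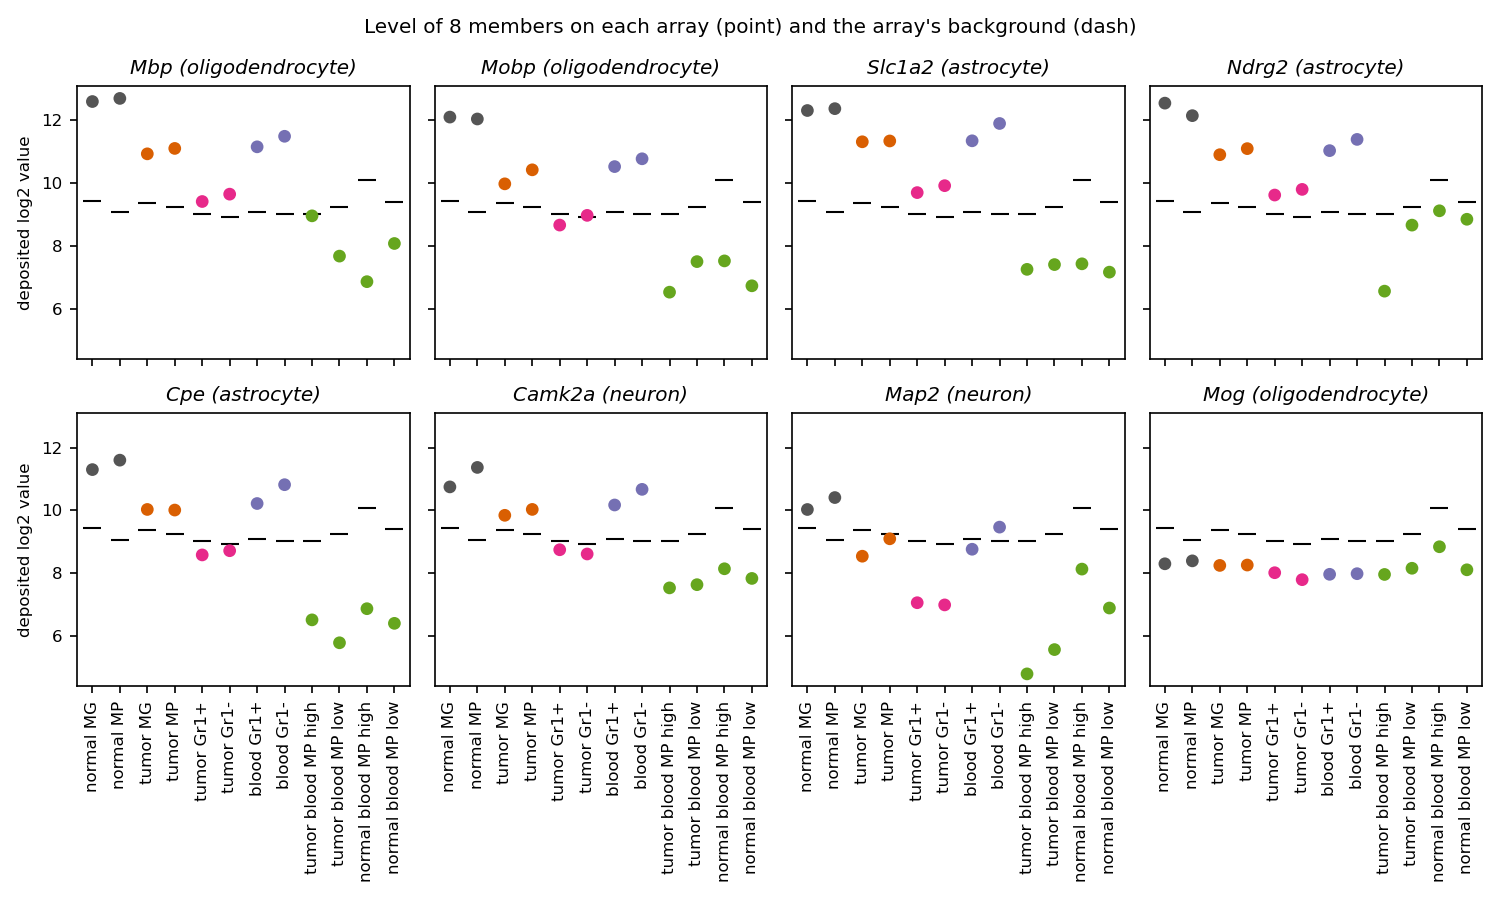
Deposited log2 value of 8 of the genes on each array (points, colored by pair, with blood macrophages in green) with that array's background (dash). Points of a pair sit together, and both blood Gr1 arrays lie above both tumor Gr1 arrays in every panel except Mog, which stays between 7.79 and 8.84.

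Whether brain and blood arrays differed was tested with limma across all genes. With all 12 arrays, 0 of 37 members were called higher in brain at an adjusted p under 0.05, against 0% of all genes, and 0 lower, against 0.0351%. The lowest adjusted p of a member was 0.282 with limma, for Glul, although 9 members and 2082 genes had an unadjusted p under 0.05. An exact two-sided permutation test over 924 splits of the arrays also called no member after adjustment, with 2 members at an unadjusted p under 0.05, and the smallest p it allows is 0.00216. No member had all 6 brain values above all 6 blood values, against 0.145% of genes. Slc1a2 showed the widest gap, 2.41 higher in brain (SE 0.84, 95% interval 0.62 to 4.21, limma adjusted p = 0.283).

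Without both blood Gr1 arrays, a choice made after seeing the data, 9 members were higher in brain, where 3.50% of all genes were, and none was lower, where 1.29% were. The 9 were Mbp and Mobp of oligodendrocytes, Slc1a2, Slc1a3, Gfap, Glul, Ndrg2 and Cpe of astrocytes, and Camk2a of neurons. Brain exceeded blood macrophages by 3.85 (SE 0.48) for Slc1a2, 3.65 (SE 0.54) for Cpe, 3.30 (SE 0.62) for Mobp, 3.18 (SE 0.63) for Mbp and 2.11 (SE 0.46) for Camk2a on the log2 scale, with limma adjusted p-values of 0.000555, 0.00188, 0.00892, 0.0115 and 0.0195. For Gfap the difference of 0.98 (SE 0.25, limma adjusted p = 0.0412) was between values all below background. The median difference of all 37 members was 0.30 in this comparison and that of all genes -0.15. For 8 members, Mbp, Mobp, Slc1a2, Glul, Ndrg2, Cpe, Snap25 and Camk2a, all 6 brain arrays lay above all 4 blood macrophage arrays, against 4.27% of genes. The same 8 members had the 6 brain and both blood Gr1 arrays above the 4 blood macrophage arrays, against 3.07% of genes. With values below background set to it, limma called 5 members (2.15% of genes), and 1 member had all brain arrays above all blood macrophage arrays (1.18% of genes). Leaving out blood Gr1- alone gave 3 members in limma (2.16% of genes), and leaving out normal blood macrophage high as well as both blood Gr1 arrays gave 6 (2.46%).

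**Figure D3:**
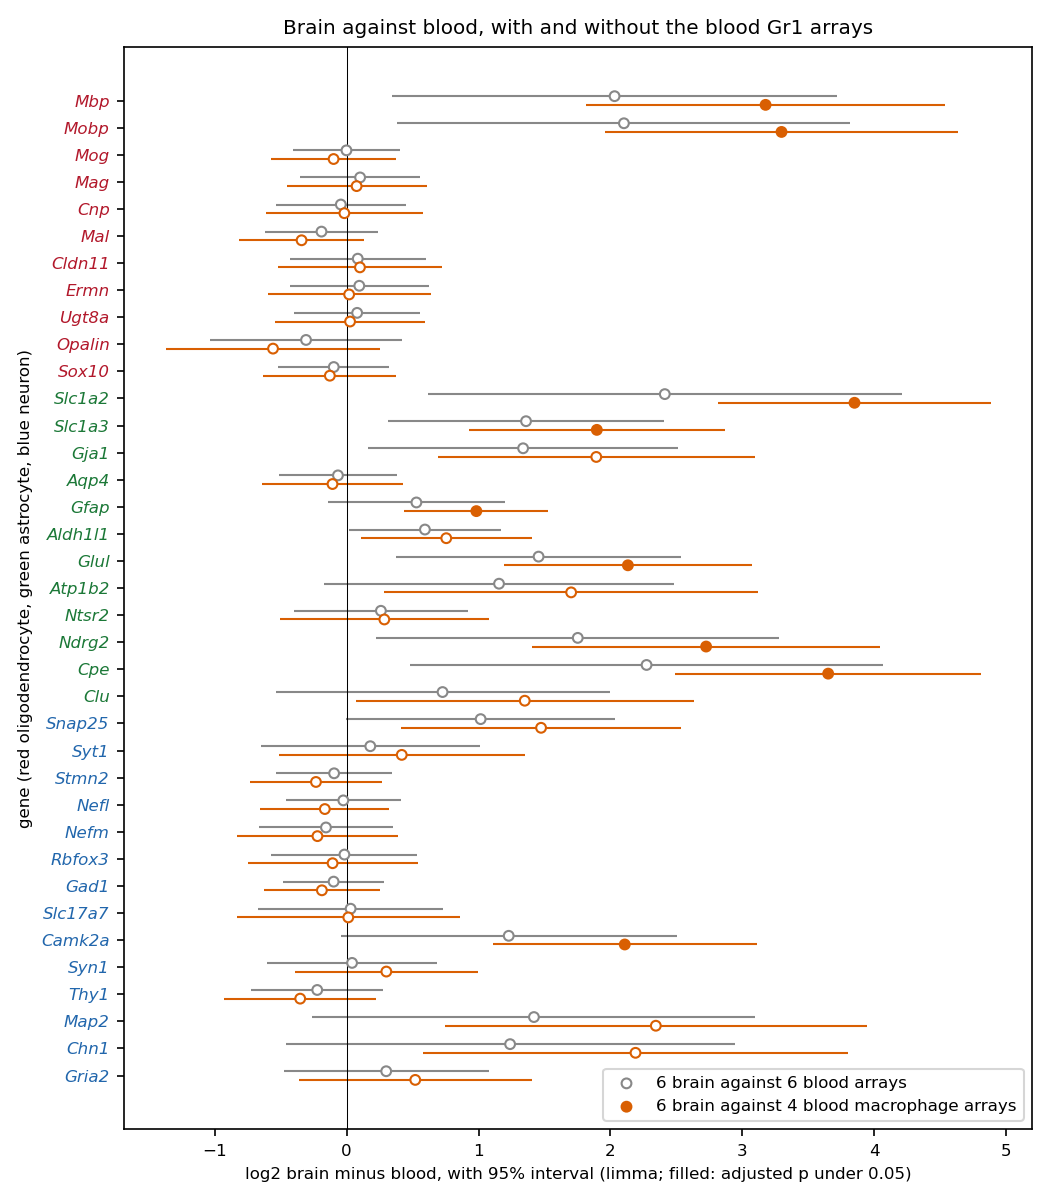
Log2 difference of brain minus blood with its 95% interval for each gene, from limma with all 12 arrays (gray) and without both blood Gr1 arrays (orange); filled points have an adjusted p under 0.05. No gray point is filled, and 9 orange points are, with Slc1a2 at 3.85 the farthest to the right.

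In brain, many members had lower values in cells from tumors than in cells from normal brain. Of the 37, 24 had both normal arrays above all 4 tumor brain arrays, against 11.8% of genes, and 0 had both below, against 5.58%. Among the 4 tumor brain arrays, those of Gr1+ and Gr1- cells have no counterpart from normal brain. These counts therefore mix population with disease state. The 24 were 5 oligodendrocyte, 9 astrocyte and 10 neuron genes. Of them, 8 were below background on all 12 arrays, namely Mog, Ermn, Ugt8a, Aldh1l1, Syt1, Nefm, Chn1 and Gria2, and with values below background set to it the count was 15 (5.31% of genes). Between MG arrays, 12 members were at least 2-fold lower in tumor (3.61% of all genes) and 0 higher (2.44%). Between MP arrays, 16 were lower (3.58%) and 0 higher (1.65%). Between these MP arrays 9 of 11 neutrophil markers and all 7 border macrophage markers were also at least 2-fold lower in tumor. The MP arrays therefore may not hold like populations, which was not tested. With the floor at background 7 members (0.838% of genes) were lower in MG and 11 (1.12%) in MPs. In MPs the floored difference turned to 0.16 for Syt1 and Chn1, both below background on both arrays, and to 0.11 for Syn1, which passed it on normal MPs alone. The median difference over the 37 was -0.73 for MG and -0.52 for MPs, where the medians of all genes were -0.09 and 0.12.

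The sizes differed between genes. Atp1b2, below background on tumor MG and MPs, was at least 2.45-fold lower in tumor MG and at least 4.06-fold lower in tumor MPs than in the normal counterparts, with background standing for the tumor value. Mbp was 3.18-fold and 3.02-fold lower, and Camk2a 1.87-fold and 2.53-fold lower. For Slc1a2 the log2 difference was -1.03 in MPs and just short of 2-fold in MG, and for Ndrg2 the values were -1.05 in MPs and -1.64 in MG. Gja1 and Clu were also below background on tumor MG and MPs, so that differences given for them, and for Atp1b2, rest on tumor values below it. Glul was at -1.27 in MG and -0.06 in MPs, and Gad1, flat elsewhere, at 0.03 and 0.15. In limma on the 4 MG and MP arrays, 5 members were lower in tumor (0.191% of all genes) and 0 higher (0.105%). The estimates were -2.38 (SE 0.27) for Atp1b2, -2.02 (SE 0.27) for Gja1, -1.87 (SE 0.25) for Mobp, -1.86 (SE 0.25) for Clu and -1.63 (SE 0.22) for Mbp, with limma adjusted p-values from 0.0313 to 0.0415. These calls did not hold under every setting. No member passed after median centring, quantile or cyclic loess normalization, with population as a block or with genes above background alone, where the limma adjusted p-values of these 5 genes ran from 0.067 to 0.248. The count was 1 (0.0702% of genes) without tumor MG, 3 (0.120%) without tumor MPs, 19 (11.1%) without normal MG and 21 (11.8%) without normal MPs.

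The arrays of each pair were then set against each other. Tumor MPs and tumor MG had 0 members at least 2-fold apart in either direction (0.186% of genes higher, 0.155% lower), with Mobp the farthest among members above background on either array, at 0.45. Normal MPs against normal MG had 1 higher (4.35%), Syn1 at 1.05, and 1 lower (3.11%), Glul at -1.17. Syn1 was below background on normal MG, and with the floor its difference turned to -0.31. Tumor Gr1+ against Gr1- had 0 higher (2.88%) and 3 lower (5.12%), namely Slc1a3 at -2.49, Glul at -1.72 and Chn1, below background on both arrays, at -1.68. Blood Gr1+ against Gr1- had 0 higher (3.20%) and 1 lower (4.31%), Slc1a3 at -1.40. At most 3 of 37 members were thus 2-fold apart within a pair. Microglia markers were so in 10 of 11 cases between the tumor Gr1 arrays and in all 11 between the blood Gr1 arrays, each time with Gr1+ the lower. Mbp differed by -0.23 and -0.34 between Gr1+ and Gr1- cells of tumor and of blood, and Slc1a2 by -0.22 and -0.55.

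The median absolute log2 difference over the 37 genes was 0.34 between normal MPs and MG, 0.17 between tumor MPs and MG, 0.21 between tumor Gr1+ and Gr1- and 0.32 between blood Gr1+ and Gr1-. The same median over all genes was 0.36, 0.16, 0.24 and 0.27. Between pairs it was 0.73 and 0.65 for tumor against normal MG and MPs, where all genes had 0.25 and 0.29. It was 0.43 and 0.60 for blood against tumor Gr1+ and Gr1- cells, where all genes had 0.22 in both. The members thus differed between pairs by more than the median gene did, and within a pair by about as much.

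**Figure D4:**
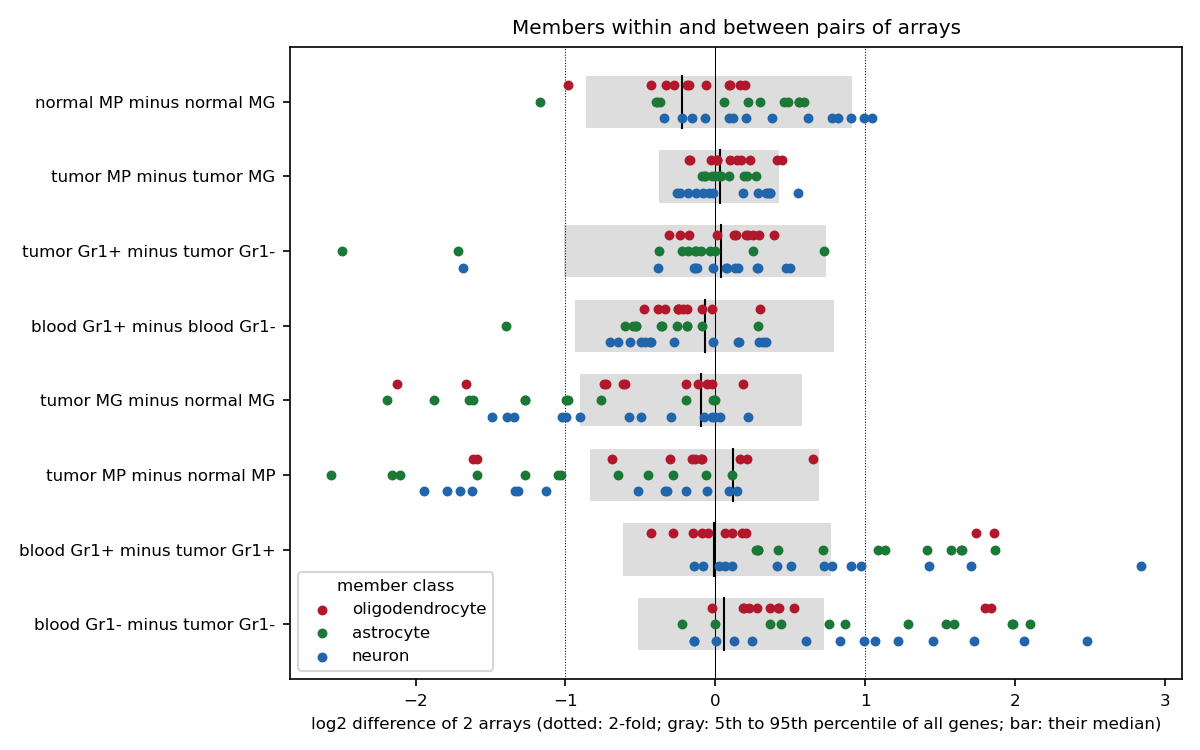
Log2 difference of 2 arrays for the 37 genes (points, by class) in 8 comparisons, with the 5th to 95th percentile of all genes in gray and their median as a bar. The upper 4 rows compare arrays of a pair and the lower 4 compare arrays of different pairs; in the lower rows many points lie outside the gray, down to -2.57 for Atp1b2 in tumor against normal MPs.

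The Gr1 cells labelled as blood were compared with those of tumor brain, again a choice made after seeing the data. For 23 of 37 members, 5 of oligodendrocytes, 9 of astrocytes and 9 of neurons, both blood Gr1 arrays lay above both tumor Gr1 arrays, against 19.8% of genes. Of these 23, 14 were below background on all 4 arrays. With values below background set to it the count was 32, against 63.1% of genes. Background itself was higher on blood Gr1+ and Gr1-, at 9.09 and 9.03, than on tumor Gr1+ and Gr1-, at 9.01 and 8.93. This count therefore depends on the background of the arrays. Between Gr1+ arrays, 12 members were at least 2-fold higher in the array labelled blood (2.97% of genes) and 0 lower (1.02%). Between Gr1- arrays, 14 were higher (2.44%) and 0 lower (0.547%). Of the 12, 3 were below background on both Gr1+ arrays, and of the 14, Gja1, Atp1b2, Snap25, Syt1, Chn1 and Gria2 were below it on both Gr1- arrays. With the floor the counts were 7 (0.627% of genes) and 6 (0.226%). Mbp was 3.35-fold higher between Gr1+ and 3.59-fold higher between Gr1- arrays, and Slc1a2 3.14-fold and 3.95-fold. Camk2a, below background on both tumor Gr1 arrays, was at least 2.23-fold and at least 3.33-fold higher, with background standing for the tumor value. Map2 was at least 1.45-fold higher between Gr1- arrays and below background on both Gr1+ arrays. Limma on these 4 arrays called no member higher (0% of genes) and none lower (0%), with 17 members and 1042 genes at an unadjusted p under 0.05 and a lowest adjusted p of 0.573. With population as a block it called 6 members higher (0.206% of genes), namely Mbp, Mobp, Slc1a2, Cpe, Clu and Map2, with limma adjusted p-values from 0.0328 to 0.0443.

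Other genes of the same cell classes were read from lists that hold no member. Of 16 other astrocyte genes, 9 and 12 were above background on normal MG and MPs, 4 and 5 on tumor MG and MPs, 4 and 4 on tumor Gr1+ and Gr1-, 5 and 7 on blood Gr1+ and Gr1-, and 1 or 2 on blood macrophages. Sparcl1, a matrix protein of astrocytes, was at 12.65 and 12.31 on normal brain, 10.94 and 11.17 on tumor MG and MPs, 9.07 and 9.38 on tumor Gr1+ and Gr1-, 11.45 and 11.52 on blood Gr1+ and Gr1-, and from 4.95 to 7.27 on blood macrophages. By their means the pairs had the order of Mbp here too. Mt3 and Sox9, also among the 4 genes of this list with the highest mean, did not have that order. Mt3 was between 9.63 and 11.01, highest on normal blood macrophage high, and above background on all 12 arrays. Sox9 was between 9.37 and 10.19 and above background on 11 arrays. Of 20 other neuron genes, 6 and 12 passed background on normal MG and MPs, 4 and 3 on tumor MG and MPs, 3 on each tumor Gr1 array, 2 and 8 on blood Gr1+ and Gr1-, and 1, 3, 1 and 3 on blood macrophages (tumor high, tumor low, normal high, normal low). Blood Gr1+ was thus below both tumor Gr1 arrays in this count. Kif5a, a neuronal kinesin, was at 11.15 and 11.77 on normal brain, 9.05 and 9.19 on tumor Gr1+ and Gr1-, 10.60 and 10.94 on blood Gr1+ and Gr1-, and from 7.08 to 8.24 on blood macrophages. The others of the 4 neuron genes with the highest mean, Slc32a1, Nefh and Camk2b, went another way. They were highest on normal blood macrophage high, at 11.02, 9.94 and 9.87. Slc32a1 was above background on all 12 arrays, Nefh on 7 and Camk2b on 4. Of 16 other oligodendrocyte genes, 2 to 4 passed background on 11 arrays and 1 on normal blood macrophage high, and at most 1 of the 7 oligodendrocyte precursor genes did so on any array.

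Limma of brain against blood macrophages left out both blood Gr1 arrays. It called 1 of 16 other oligodendrocyte, 2 of 16 other astrocyte and 3 of 20 other neuron genes higher in brain. Of all genes, 3.50% were higher there. None of these list genes was lower, against 1.29% of all genes. The oligodendrocyte gene was Trf, the iron carrier transferrin, which was at 10.35 and 10.02 on tumor high and normal low blood macrophages. Between tumor and normal MG and MPs, 4 of 16 other astrocyte genes were lower in tumor, against 0.191% of all genes. None of the other oligodendrocyte or neuron genes passed. After median centring or cyclic loess normalization, or with population as a block, 0 of all 19938 genes were called lower in tumor. Of 16 endothelial and mural genes, none passed in either comparison, and 3 to 6 were above background on each array. Of 9 choroid plexus and ependymal genes, 1 was lower in brain than in blood macrophages and 1 was lower in tumor than in normal brain. None of these 9 was higher in either comparison.

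**Figure D5:**
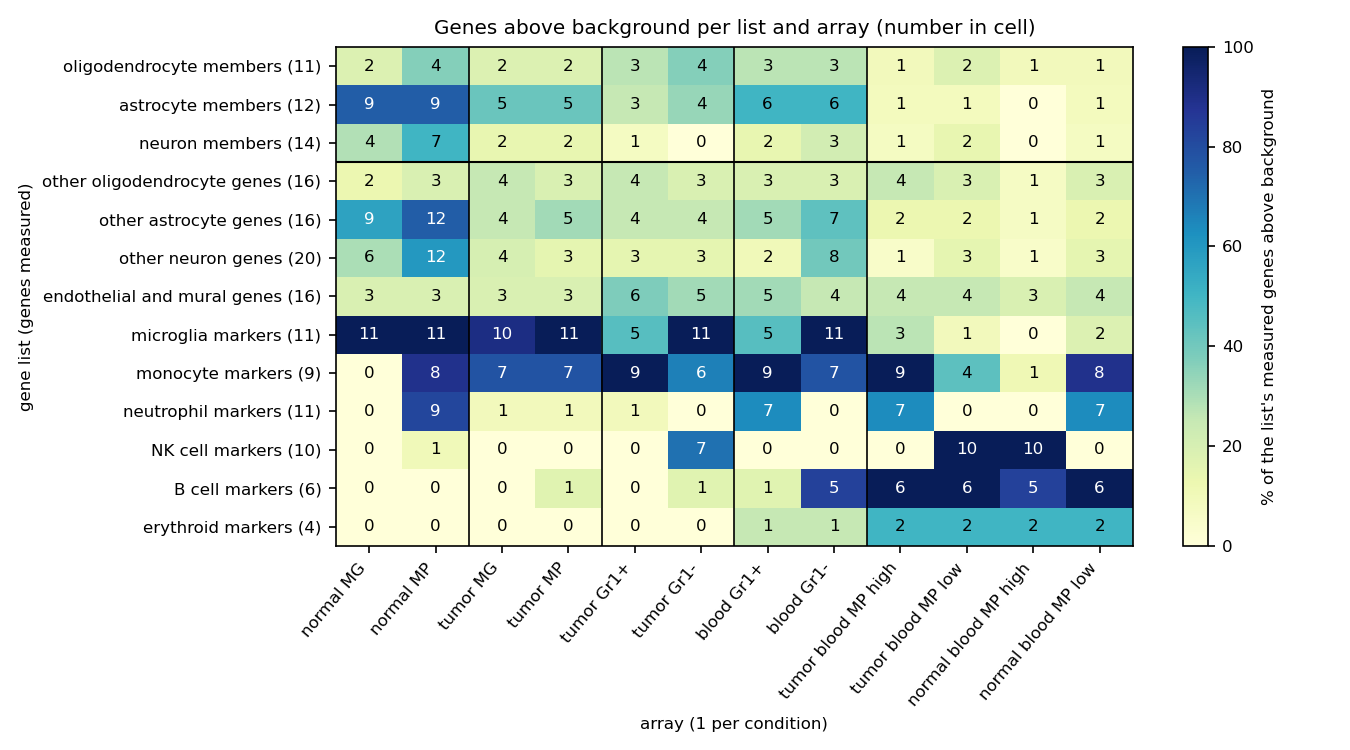
Number of genes above background (in the cell) and their share of the list's measured genes (color) for 13 gene lists on the 12 arrays. Astrocyte lists are darkest on normal brain and neuron lists on normal MPs, with other neuron genes at 8 on blood Gr1- and 6 on normal MG. Microglia markers are at 11 on blood Gr1-, and B cell markers are at 5 there and at 5 or 6 on blood macrophages. Erythroid markers pass background on the 6 blood arrays and on no brain array.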

How the data were processed

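Expression was measured on 12 Affymetrix Mouse Gene 1.0 ST arrays, 1 per sorted population. The authors scanned the arrays and made values from them with the Expression Console software, and RMA is named in the submitters' processing notes. The table as deposited by the authors is on a log2 scale, each value being the log2 of a signal held to 0.01 and never under 1. The genome build and annotation release were not given in the sources used here. Of 28944 probe sets, 21789 carry 1 gene symbol in the platform annotation, 1621 several and 5534 none, and only the first were used. The brightest probe set by mean over the 12 arrays stood for each of 19938 genes. Values were used as deposited, and the number of arrays limits their precision.

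Groups came from the sample labels. Brain was compared with blood, and tumor with normal MG and MPs, by limma 3.58.1 (lmFit and eBayes) in R 4.3.3 with Benjamini-Hochberg adjustment over all genes and a threshold of 0.05. Single arrays were compared by difference alone and counted at 2-fold. All else was done with pandas 2.3.3, numpy 2.4.6 and matplotlib 3.10.9 under Python 3.11.15. In simulated data for brain against blood over 19938 genes, limma recovered 95% of 100 genes shifted by 2 on the log2 scale. Of unchanged genes, 0.0253% were called. The shifted genes were picked at random from all genes, with independent normal noise. The 95% therefore does not give the power for the members, of which Slc1a2 differed by 2.41 and was not called. Alternatives were other scalings, the mean of probe sets, a floor at background, other thresholds, an intensity trend, a population block, all 6 brain arrays and leaving out each array.

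Every member may be named, and up to 4 genes of each other list, those with the highest mean over the 12 arrays. Members and lists were chosen with earlier results of these data known.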

Additional observations from a re-analysis of the deposited data

Results flagged for a closer look

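Each gene was examined for a single array apart from the other 5 of its tissue label, by Dixon's ratio at its 95% critical value for 6 arrays. In 74 such sets, 6 values stood apart, and chance gives about 1 in 20. On the normal blood macrophage high array, which also had the highest background (10.09), Mog was at 8.84 where the other blood arrays ran from 7.96 to 8.15, Ugt8a at 9.36 where they ran from 8.36 to 8.67, Stmn2 at 9.72 where they ran from 8.49 to 8.86, and Slc17a7 at 9.86 where they ran from 8.45 to 8.89. All of these lay below that array's background. On tumor Gr1+ cells, Slc1a3 was at 7.72 where the other brain arrays ran from 9.90 to 10.67. On tumor Gr1- cells, Gad1 was at 8.85 where the other brain arrays ran from 9.32 to 9.51.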

How the results depend on the processing

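Brain against blood over 12 arrays gave 0 members, but 4 with a floor at background (1.48% of genes) and 3 without blood Gr1- (2.16%). It gave 9 without both blood Gr1 arrays (3.50%) and 6 without normal blood macrophage high as well (2.46%). Leaving out 1 array gave 0 to 3. Non-overlap of brain over blood gave 0 members, with each single array left out too, and 8 without both blood Gr1 arrays. Without these, a floor gave 5 members in limma and 1 by non-overlap. Tumor against normal MG and MPs gave 5 lower members, but 0 after median centring, quantile or cyclic loess normalization, with the population block, with genes above background alone or at the methods' threshold, 11 with a floor, and 1 to 21 with 1 array left out, where the lone array is assumed to vary like the others. Normal above tumor brain gave 24 members and 15 with a floor; tumor above normal gave 0, and 0 to 1 with 1 array left out. The 6 members of blood over tumor Gr1 cells (0.206% of genes) were called with the block only. With the floor, 0.883% of all genes were lower in tumor against normal MG and MPs.

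With a floor, lower members were 7 in MG (0.838% of genes) and higher members 0 in normal MPs against MG (1.33%). Higher members with a floor were 7 (0.627%) and 6 (0.226%) in blood over tumor Gr1+ and Gr1- cells. Among genes above background alone, 8 members were higher in blood than in tumor Gr1- cells. At 1.5-fold, lower members were 21 in MG, 2 in normal MPs against MG and 4 in blood Gr1+ against Gr1-. Higher members at 1.5-fold were 1 in tumor MPs, 7 in normal MPs against MG and 1 in tumor Gr1+ against Gr1-. For counts at 1.5-fold and among genes above background alone, the share of all genes is not given. Nor is it given for the counts below after other scalings, with the mean of probe sets or with background at other percentiles. These counts therefore cannot be read as particular to the members. Higher members in normal MPs against MG were 3 after median centring or quantile normalization and 5 after cyclic loess, and lower members 0 after quantile normalization or with the mean of probe sets. These scalings moved the median gene there by 0.13, 0.12 and 0.21. With background at the 99th percentile, members above it were 3 and 5 on tumor Gr1+ and Gr1-, 7 on blood Gr1+ and 1, 1, 0 and 1 on blood macrophages, and at the 90th, 14 on tumor Gr1-, 20 on blood Gr1- and 4 on normal blood macrophage high. With a floor, Gfap turned to -0.14 in brain against blood and 0.05 in tumor against normal. Without 1 Gr1 array, the difference of blood and tumor Gr1 cells ran from -0.40 to 1.32 for Glul and from -0.70 to 1.79 for Slc1a3, the latter at -0.16 without blood Gr1-.

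Pairing was possible by population alone, as the block above, and not by animal, because each condition has 1 array. The causes of these changes were not tested.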
